A study of Macaca mulatta with 10 samples.

Results

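CD4, ITGA2, LAG3 and ITGB1 were read in 10 RNA-seq libraries of type 1 regulatory T (Tr1) cells. The first 3 encode the surface proteins on which these cells were sorted (CD4, CD49b and LAG-3), and ITGB1 encodes the beta1 chain with which CD49b forms a receptor. The members were chosen by gene symbol, and each of the 4 symbols matched 1 row among the 26484 rows of the count table and 1 row among the 26381 rows of the FPKM table (mapped fragments scaled by exon length and by library size).

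The libraries came from 10 rhesus monkeys (*Macaca mulatta*), 1 library per monkey, 5 in each of 2 cohorts. All were STZ-diabetic (streptozotocin) recipients of an islet allograft mismatched for MHC class I and matched at a DRB allele, and all received transient immunosuppression with rapamycin, etanercept (a soluble TNF receptor), tocilizumab (an antibody to the interleukin 6 receptor) and 2C10R4, an antagonistic antibody to CD40. Cohort B (monkeys 13EP12, 13EP8, 14HP26, 14HP31 and 15CP6) had no ADL infusion, whereas Cohort C (13EP5, 14HP33, 14HP24, 15CP1 and 15CP4) also had infusions of ADLs, apoptotic donor leukocytes, which are donor cells fixed with the cross-linker ethylcarbodiimide. The labels place sampling at day 365 in Cohort C and at rejection in Cohort B. The ADLs, the day of sampling and the state of the graft therefore cannot be told apart. For 13EP12, 13EP8 and 15CP1 the labels and the text of the study differ on the day of sampling. Blood mononuclear cells had been frozen, thawed and rested overnight before the sort for CD4+CD49b+LAG-3+ cells, a gate that the study describes within CD45RA- CD3+ cells.

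CD4 is the coreceptor that binds MHC class II beside the T cell receptor and carries the kinase LCK to it. CD49b, the alpha2 integrin chain, has beta1 as its partner, and together they form a collagen receptor (VLA-2) found on platelets, NK cells and activated T cells. LAG-3 is an inhibitory receptor related to CD4 that also binds MHC class II and is shed from the surface by the metalloproteases ADAM10 and ADAM17. Coexpression of CD49b and LAG-3 on CD4+ memory cells is a surface definition of Tr1 cells, which act through interleukin 10.

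The libraries differed widely in depth. Total counts ran from 6076 to 1392157 in Cohort B (median 455470) and from 66485 to 5895609 in Cohort C (median 968423), and genes with at least 1 count numbered 465 to 10225 and 891 to 15068. In 14HP33, MTRNR2L genes took 87.0% of the counts. Levels are given as CPM, that is counts relative to the TMM-adjusted total of each library, where 3 counts, the floor used here, correspond to 2.29 to 119 CPM in Cohort B and 0.623 to 42.7 CPM in Cohort C. In 4 libraries, 14HP26 and 14HP31 of Cohort B and 14HP33 and 15CP4 of Cohort C, no member had more than 3 counts. These libraries also had 5, 7, 6 and 5 of 8 housekeeping genes at 0. In 14HP24, 4 were at 0, and the other 5 libraries had 0 to 2 at 0. Each comparison of mean log2(CPM + 1) below is therefore also given without those 4 libraries, a choice made after the values were seen. The 6 libraries kept had at most 4 of 8 housekeeping genes at 0. In bulk RNA, fewer cells of a type and less RNA per cell cannot be told apart.

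**Figure D1:**
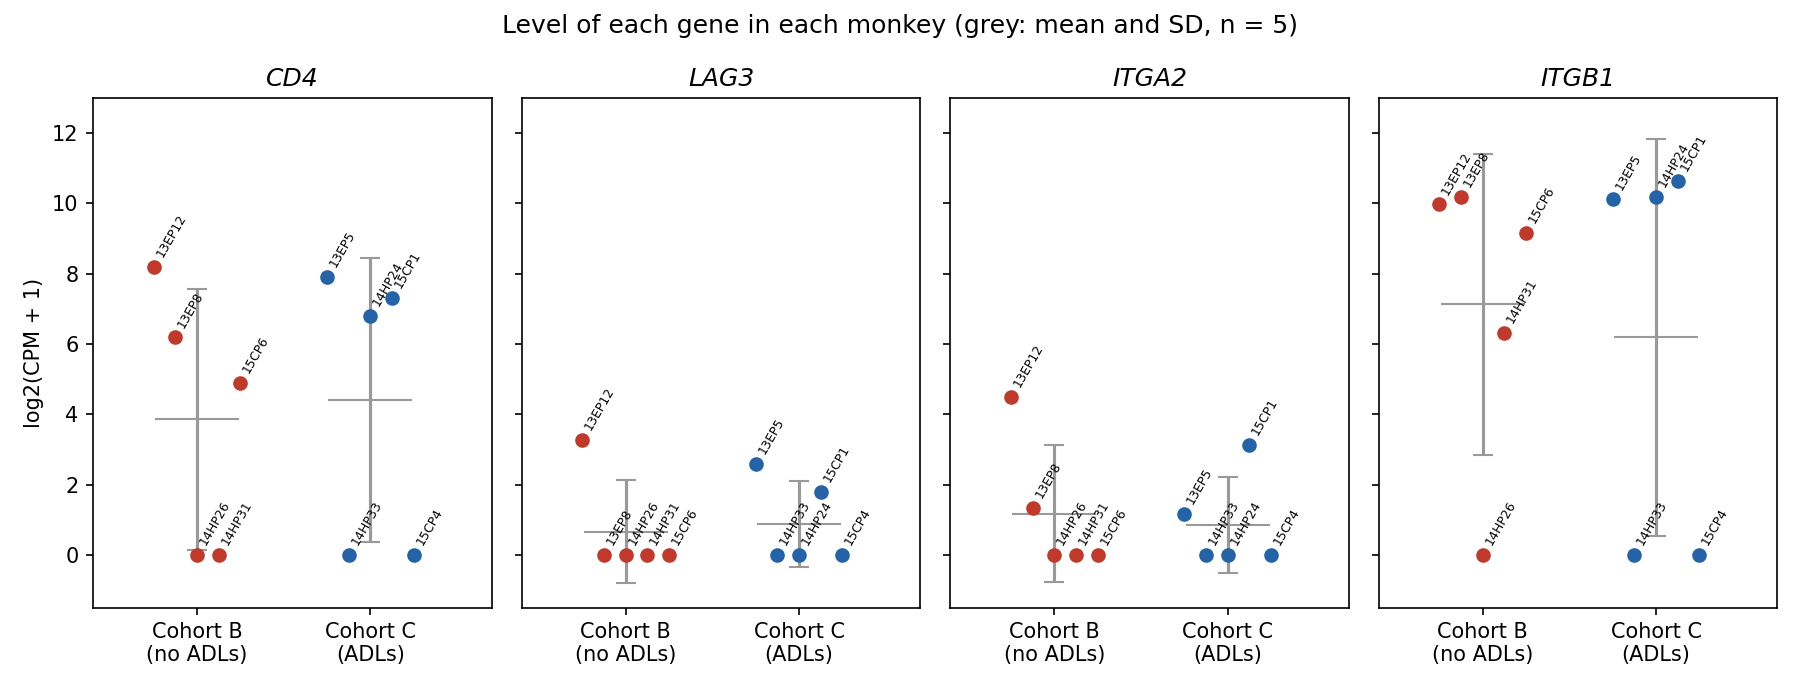
Level of CD4, LAG3, ITGA2 and ITGB1 in each monkey as log2(CPM + 1), for Cohort B (red, no ADLs) and Cohort C (blue, ADLs), with 1 point per monkey. Grey lines show the mean and SD of 5 monkeys. In every panel the cohorts overlap, and 14HP26, 14HP33 and 15CP4 sit at 0 throughout.

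CD4 had 2002 counts in all 10 libraries together. In Cohort B its counts were 338 in 13EP12, 94 in 13EP8, 13 in 15CP6 and 0 in both 14HP26 and 14HP31. In Cohort C they were 772 in 13EP5, 766 in 15CP1, 19 in 14HP24 and 0 in both 14HP33 and 15CP4. Each cohort thus had 3 libraries with CD4 and 2 without a count, and the 2 ranges overlapped.

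As levels, the 3 Cohort B libraries with CD4 had 293, 71.9 and 28.8 CPM (13EP12, 13EP8, 15CP6). The 3 of Cohort C had 241, 110 and 159 CPM (13EP5, 14HP24, 15CP1), all inside the range of Cohort B. Mean log2(CPM + 1) was 3.86 ± 3.71 in Cohort B and 4.41 ± 4.04 in Cohort C (SD, n = 5 each). The difference of 0.55 was smaller than either SD (exact permutation test, two-sided, p = 0.762, where 252 assignments allow a smallest p of 0.00794). In the 6 libraries with fewer housekeeping zeros, the means were 6.43 ± 1.67 and 7.34 ± 0.56 (SD, n = 3 each). The difference was 0.91 (exact permutation p = 0.5, smallest possible 0.1). That set is also the set of libraries with CD4 counts, so it leaves out every CD4 zero.

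In the count model over all genes CD4 had a log2 fold change (Cohort C over Cohort B) of 0.35 with a standard error of 1.98 (edgeR quasi-likelihood test, adjusted p = 1). In the FPKM table CD4 was listed at 72.2 and 7.06 in 13EP12 and 13EP8, at 299, 19.1 and 18.2 in 13EP5, 14HP24 and 15CP1, and at 0 in the other 5 libraries. There the log2 fold change was 1.52 with a standard error of 2.12 (limma on log2(FPKM + 1), adjusted p = 1).

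The CD4 gate can be read against CD8, the coreceptor of cytotoxic T cells, whose chains are encoded by CD8A and CD8B. CD4 made up 76.5% of the summed CD4, CD8A and CD8B counts in 13EP12 (95% Wilson interval 72.3 to 80.2) and 85.5% in 13EP8 (77.7 to 90.8). The share was 95.2% in 13EP5 (93.5 to 96.5) and 88.9% in 15CP1 (86.6 to 90.8). In 15CP6 and 14HP24 all 13 and all 19 such counts were CD4, with lower bounds of 77.2% and 83.2%. By counts, which are not scaled for gene length, CD4 thus outnumbered the CD8 chains in all 6 libraries with counts. CD8A plus CD8B still had 104 counts in 13EP12 and 96 in 15CP1. In the other 4 libraries CD4, CD8A and CD8B were all at 0. The Wilson intervals, like the 3-count floor, cover counting error only. By FPKM, CD4 also stood above the summed CD8 chains in 13EP12, 13EP5, 14HP24 and 15CP1. In 13EP8, CD4 at 7.06 FPKM stood above CD8A (6.996) and CD8B (2.92) taken singly, but not above their sum. In 15CP6 these genes were all listed at 0 FPKM.

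**Figure D2:**
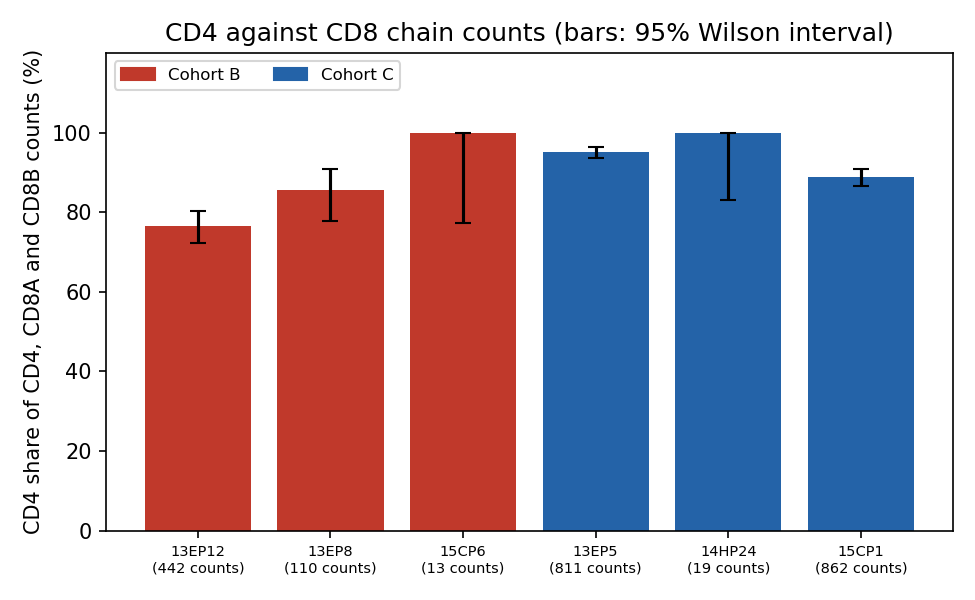
CD4 counts as a percentage of the summed CD4, CD8A and CD8B counts in the 6 libraries that had any, red for Cohort B and blue for Cohort C, with 95% Wilson intervals and the summed counts under each monkey. The share runs from 76.5% in 13EP12 to 100% in 15CP6 and 14HP24, whose intervals are the widest.

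Relative to the CD3 chains of the T cell receptor complex (CD3D, CD3E, CD3G and CD247), CD4 had 45.4 counts per 100 in 13EP12, 14.1 in 13EP8 and 3.64 in 15CP6. In Cohort C it had 47.2 in 13EP5, 136 in 14HP24, 23.4 in 15CP1 and 0 in 14HP33, which had 12 CD3 chain counts. The ranges of the cohorts overlapped. Among libraries with CD4 counts, the lowest and the highest ratio rested on 13 and 19 of them.

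LAG3, the inhibitory receptor of the gate, had 38 counts in 10 libraries. Cohort B had 10 counts, all in 13EP12. Cohort C had 16 in 13EP5 and 12 in 15CP1, and the other 3 libraries had 0. The 7 libraries at 0 included 13EP8, which had 10225 genes detected, although the sort had gated on LAG-3 protein.

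In CPM, LAG3 stood at 8.68 in 13EP12, 4.99 in 13EP5 and 2.49 in 15CP1. Within these libraries 22.7% to 25.1% of the detected genes had fewer counts, so LAG3 lay in the lower part of the range. At the median LAG3 level of the 3 libraries, more than 3 counts would have been expected in 1 of the 7 libraries at 0, which was 13EP8 (6.52 counts expected), or in 2 with unscaled totals. In the other libraries a level like this was not detectable at this depth.

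The cohorts did not differ detectably in LAG3. Mean log2(CPM + 1) was 0.65 ± 1.46 in Cohort B and 0.88 ± 1.23 in Cohort C (SD, n = 5 each), with a difference of 0.22 (exact permutation p = 1). The log2 fold change was -0.16 with a standard error of 1.73 (edgeR, adjusted p = 1). This value rested on 13EP12: without it the fitted change was 4.38 with an unadjusted p of 0.0427 and an adjusted p of 0.240 (edgeR), and over all settings tried the unadjusted p ran from 0.0427 to 1. All remaining Cohort B libraries were then at 0. Pooled Cohort C, at 3.32 CPM, was 2.16 times the 1.53 CPM that 3 counts over those libraries allow. This ratio leaves out 13EP12, the library with the highest LAG3 level. Its Cohort C counts came from 2 of 5 libraries. Pooling ignores the spread between monkeys, so the ratio sets no lower bound on a difference between cohorts. In the 6 libraries with fewer housekeeping zeros, the means were 1.09 ± 1.89 and 1.46 ± 1.32 (SD, n = 3 each, exact permutation p = 1).

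FPKM listed LAG3 at 6.74 in 13EP12 and 3.56 in 13EP5, and at 0 in all others, including 15CP1 with its 12 counts. CD4 stood 10.7 times above LAG3 on this per-length scale in 13EP12 and 83.9 times in 13EP5. The log2 fold change in FPKM was -0.15 with a standard error of 0.92 (limma, adjusted p = 1).

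ITGA2, which encodes CD49b, had 68 counts in all. Cohort B had 25 in 13EP12 and 2 in 13EP8, with 0 in the other 3 libraries. Cohort C had 37 in 15CP1 and 4 in 13EP5, with 0 in the other 3. Only 3 libraries thus passed 3 counts, and the library with the highest level was in Cohort B.

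The levels were 21.7 CPM in 13EP12, 7.68 in 15CP1, 1.53 in 13EP8 and 1.25 in 13EP5, a 17.4-fold span among the 3 libraries over 3 counts. In those libraries 7.19% to 41.5% of the detected genes had fewer counts. With TMM factors, more than 3 counts would have been expected at the median level in 2 of the 7 libraries at or under the floor. They were 13EP8 (10.0 expected, 2 found) and 15CP6 (3.47 expected, 0 found). With unscaled totals they were 13EP8 (8.74) and 14HP33 (6.08 expected, 0 found), while 15CP6 fell to 2.86. For 15CP6 and 14HP33 the reading thus depends on the scaling. Depth limits what the zeros of 14HP26, 14HP31, 14HP24 and 15CP4 can show.

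Between cohorts, mean log2(CPM + 1) of ITGA2 was 1.17 ± 1.95 in Cohort B and 0.86 ± 1.36 in Cohort C (SD, n = 5 each), a difference of -0.31 that stayed within the spread (exact permutation p = 0.722). The log2 fold change was -1.20 with a standard error of 1.86 (edgeR, adjusted p = 0.999), and its sign turned when 13EP12 was left out (1.66). The means over the 6 libraries with fewer housekeeping zeros were 1.95 ± 2.31 and 1.43 ± 1.57 (SD, n = 3 each, exact permutation p = 0.7). In FPKM the gene was listed at 0.312 in 13EP8, 1.74 in 13EP5 and 0.455 in 15CP1 and at 0 in 13EP12 despite 25 counts. Its mean FPKM of 0.250 was under the minimum of 1 set for the test.

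Platelets carry abundant CD49b, and platelet genes were therefore counted beside ITGA2. The 10 platelet markers summed to 1310 counts in 13EP5, which had 4 ITGA2 counts, to 28 in 15CP1 with 37, and to 27 in 13EP12 with 25. They summed to 8 in 13EP8, with 2 ITGA2 counts, and to 0 in the other 6 libraries. In 13EP5 they included 398 counts of TUBB1, 373 of ITGB3, 285 of PPBP, 166 of ITGA2B and 15 of GP1BA. GP1BB, GP9 and GP6 had 0 counts in all 10, although GP1BB was listed at 8.07 FPKM in 13EP5. The tables differed on ITGA2 in that library, which was 0.162 times that of 15CP1 by CPM and 3.82 times by FPKM, the highest listed. The part of platelets in ITGA2 was not tested. Of the 7 platelet markers tested, 1 was called higher in Cohort C (median log2 fold change 3.77), which was ITGB3 (7.81), with 373 of its 377 counts in 13EP5.

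ITGB1 had 14372 counts, and its FPKM was the highest of the 4 genes in every library where any of them was listed above 0. Cohort B had 1514 in 13EP8, 1156 in 13EP12, 256 in 15CP6, 2 in 14HP31 and 0 in 14HP26. Cohort C had 7694 in 15CP1, 3550 in 13EP5, 200 in 14HP24 and 0 in both 14HP33 and 15CP4. In the 6 libraries over 3 counts, before scaling for length, 95.7% to 99.7% of the detected genes had fewer counts than ITGB1.

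In those 6 the levels were also the most even of the 4 genes. They were 1003, 1158 and 566 CPM in 13EP12, 13EP8 and 15CP6, and 1107, 1155 and 1597 CPM in 13EP5, 14HP24 and 15CP1. The span was 2.82-fold, against 10.2-fold for CD4 in the same libraries. At the median of these levels, with TMM factors, 192 counts would have been expected in 14HP26, 79.4 in 14HP33 and 181 in 15CP4, where none was found, and 28.6 in 14HP31, where 2 were. With unscaled totals the expected counts were 122 in 14HP26, 1041 in 14HP33, 71.5 in 15CP4 and 6.53 in 14HP31. The counts found were thus far under those expected at a like level in 14HP26, 14HP33 and 15CP4. In 14HP31 the gap depended on the scaling. These were the libraries with the most housekeeping genes at 0. A link between the low ITGB1 counts and those zeros was not tested.

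**Figure D3:**
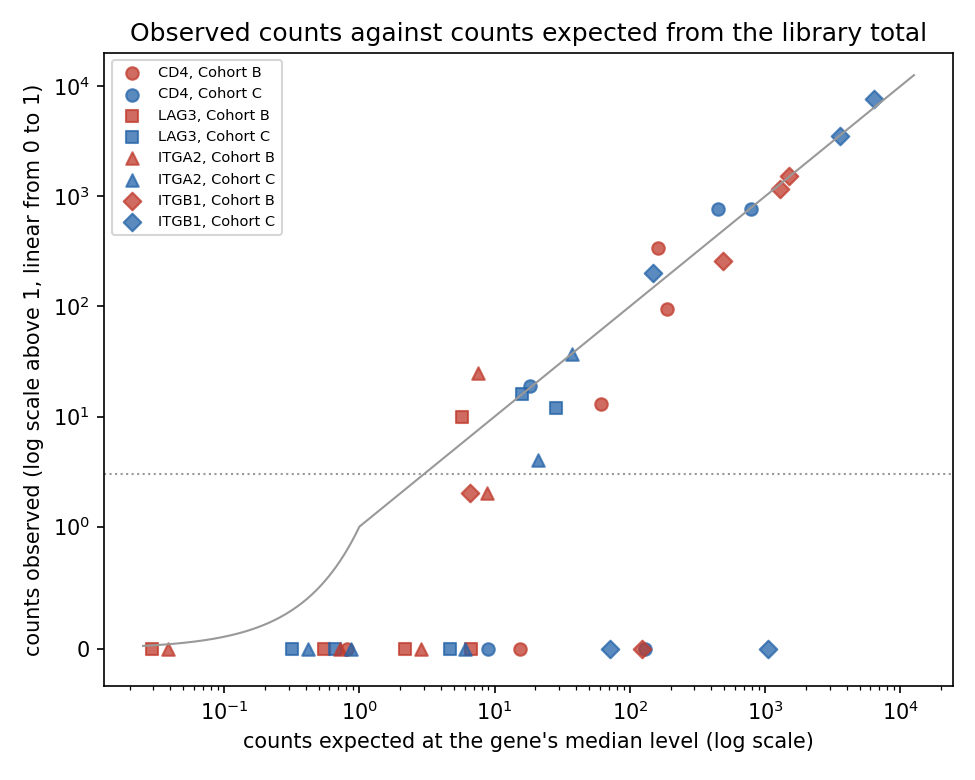
Observed counts of the 4 genes against the counts expected if a library held the gene at its median level (median CPM, of the unscaled total, over libraries with more than 3 counts), 1 point per gene and library. Grey marks equality and the dotted line 3 counts. Points on the bottom line are zeros, and for ITGB1 (diamonds) they occur where 71.5 to 1041 counts would have been expected.

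The cohort means of ITGB1 were 7.12 ± 4.27 in Cohort B and 6.19 ± 5.65 in Cohort C as log2(CPM + 1) (SD, n = 5 each), and their difference of -0.94 was smaller than either SD (exact permutation p = 0.952). Without the 4 libraries the difference turned to 0.54, between 9.77 ± 0.54 and 10.31 ± 0.29 (SD, n = 3 each; exact permutation p = 0.3). The log2 fold change was 0.46 with a standard error of 1.83 (edgeR, adjusted p = 1). Its FPKM values were 318, 401, 33.3 and 29.4 in 13EP12, 13EP8, 14HP31 and 15CP6 and 2449, 91.8 and 416 in 13EP5, 14HP24 and 15CP1, with a log2 fold change of -0.10 and a standard error of 3.24 (limma, adjusted p = 1).

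None of the 4 genes was called at the thresholds of the study (unadjusted p under 0.01 and at least 1.5-fold). The count of 0 of 4 stands against 6.43% of the 14168 genes tested, of which 1.07% were higher (152 genes) and 5.36% lower (759 genes) in Cohort C. That split rested on 13EP5 and 15CP1, since 65 genes were higher and 11 lower without the former, and 70 and 73 without the latter. None of the 4 had an unadjusted p under 0.05 either, compared with 2923 genes in all, and no gene passed an adjusted p of 0.05 (smallest 0.141). The median log2 fold change of the members was 0.10 and that of all genes tested 0.16, which became -0.11 with library size alone and 0.34 with size factors from positive counts, with no change in the sign of a member. Without the 4 libraries above, 146 of 13703 genes were called, again with no member among them. In FPKM, 0 of 10307 genes passed the limma test and 15 had an unadjusted p under 0.05. A p-value here measures the spread between monkeys with 1 library each.

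**Figure D4:**
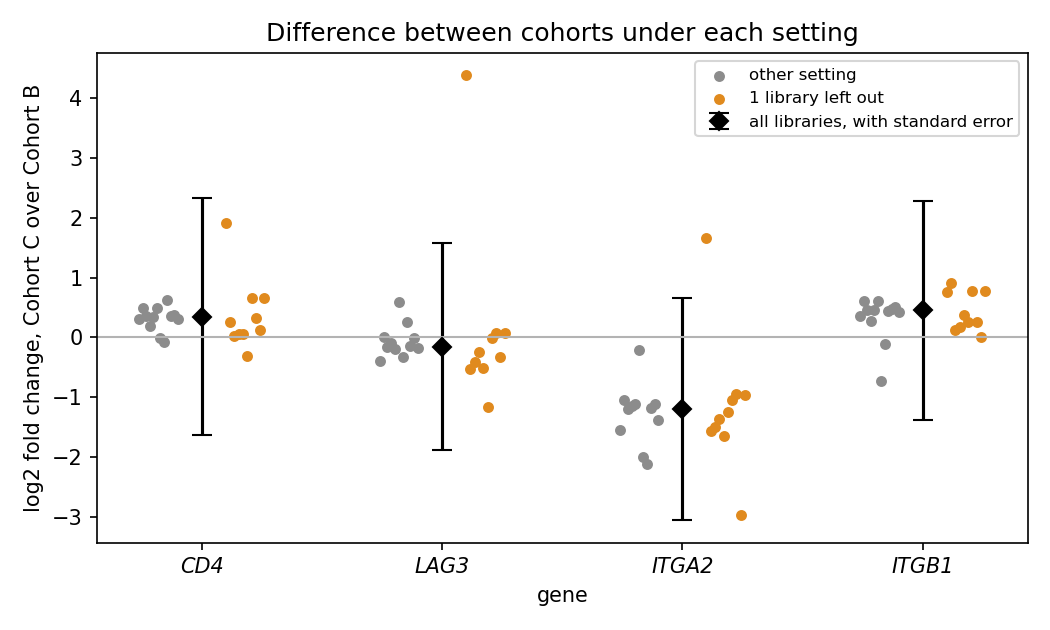
Log2 fold change of each gene, Cohort C over Cohort B. Black diamonds show edgeR on all libraries with the standard error, grey points the other settings, and orange points fits that left 1 library out. All but 1 of the points lie within a few log2 units of 0, and the highest orange point, LAG3 at 4.38, is the fit without 13EP12.

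ITGB1 is shared by many alpha chains, so ITGA2 was set beside the other chains that can pair with beta1. Over 10 libraries the 12 alpha genes had 15478 counts, not scaled for gene length. ITGA4, whose product binds VCAM-1 and fibronectin, took 58.5% of them, ITGA6 (a laminin receptor) 24%, ITGA5 (a fibronectin receptor) 7.99% and ITGA1 (a collagen receptor like CD49b) 6.37%. ITGA2 took 0.439%, and ITGA11 had no count. Of the pooled counts 8078 came from 15CP1, and the order differed in shallow libraries. In 15CP6 ITGA5 had 55 counts, ITGA6 39 and ITGA4 15, and in 14HP24 ITGA6 had 82 and ITGA4 46.

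The share of ITGA2 differed between libraries. It was 1.85% of the alpha counts in 13EP12 (95% Wilson interval 1.25 to 2.71), 0.125% in 13EP8 (0.0343 to 0.455), 0.102% in 13EP5 (0.0396 to 0.261) and 0.458% in 15CP1 (0.332 to 0.631). 13EP12 stood above the other 3 beyond the counting intervals, and 15CP1 stood above 13EP5 but not above 13EP8. Per length, ITGA4 had 99.9 FPKM, ITGA6 64.1, ITGA5 29.8, ITGA1 20.7 and ITGA2 0.455 in 15CP1. In 13EP5 the same chains had 717, 326, 94.7, 114 and 1.74 FPKM, again with ITGA2 the lowest of the 5.

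Beta1 and its partners had similar ratios in the 4 deepest of these libraries. ITGB1 had 0.853 counts per alpha count in 13EP12, 0.946 in 13EP8, 0.903 in 13EP5 and 0.952 in 15CP1. The shallower 15CP6 and 14HP24 had 1.97 and 1.56. On the FPKM scale ITGB1 exceeded ITGA2, the partner on which the cells were sorted, by 915-fold in 15CP1, where ITGA2 had 37 counts. The fold for 13EP5 (1410) rested on 4 counts, and 13EP12, which had the highest ITGA2 level by CPM, gave none because its ITGA2 was listed at 0 FPKM. Against CD4, ITGB1 stood 4.41 times higher in 13EP12, 56.8 times in 13EP8, 8.19 times in 13EP5, 4.80 times in 14HP24 and 22.9 times in 15CP1.

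**Figure D5:**
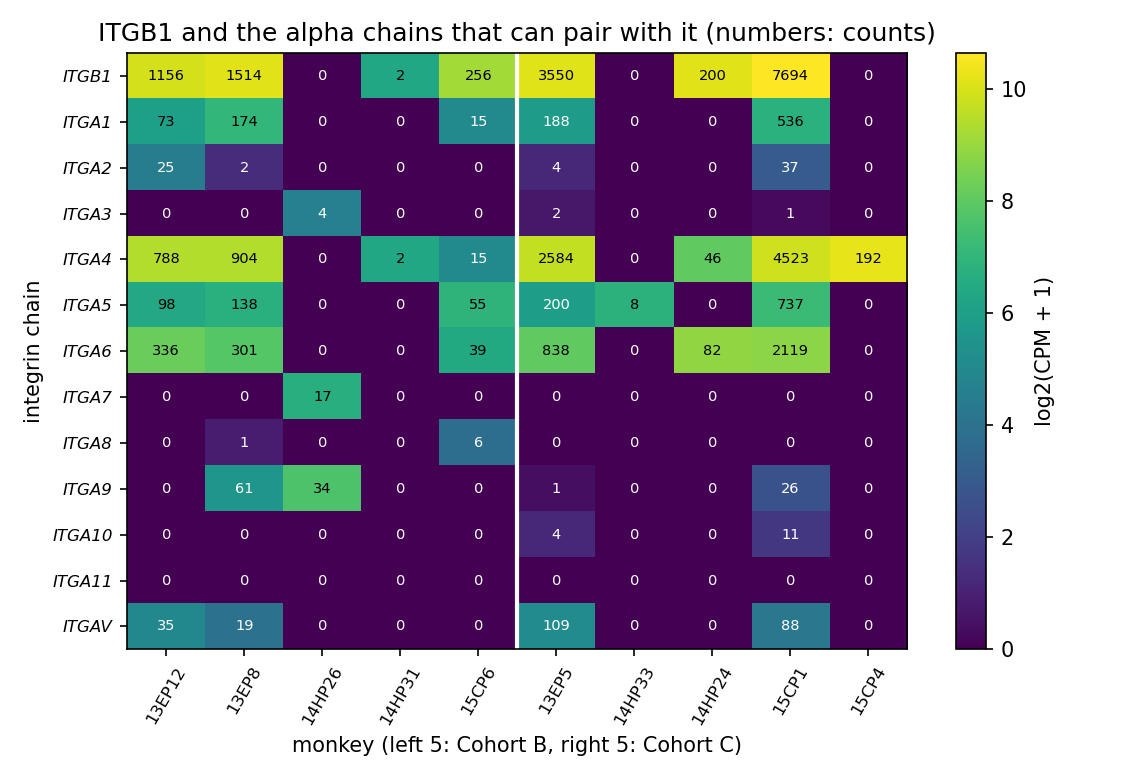
ITGB1 and the 12 alpha chains that can pair with it in each monkey, coloured by log2(CPM + 1), with the counts printed in each cell and Cohort B to the left of the white line. ITGA4 and ITGA6 follow ITGB1 in the deeper libraries, ITGA2 has at most 37 counts, and 15CP4 shows 192 counts of ITGA4 beside 0 of ITGB1.

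Of the 12 alpha genes 9 were tested, with 0 called higher and 1 lower in Cohort C (median log2 fold change 0.04). The 1 was ITGA7 (log2 fold change -7.56), whose 17 counts all came from 14HP26, a library without a count of ITGB1. ITGA4 had a log2 fold change of 1.10, ITGA6 0.93, ITGA5 0.04 and ITGA1 -0.44, none of them called. The other leukocyte integrin chains, such as ITGAL and ITGB2 of LFA-1, gave 0 of 7 called (median 1.67). Talin, kindlin-3 and further genes of integrin activation and linkage to actin gave 0 of 14 called (median 0.20). Among these, TLN1 had 10648 counts and a log2 fold change of 0.31, and FERMT3 had 695 and -0.46.

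Genes that act with CD4 and LAG-3 were read next. Of 6 genes of CD4 coreceptor signaling 0 were called (median 0.15). LCK, the kinase bound to the CD4 tail, had 2304 counts and a log2 fold change of 0.21, and LAT, an adaptor phosphorylated downstream of it, had 1134 and -0.46. Both LCK and CD4 were at 0 in the same 4 libraries, and LCK was also at 0 in 15CP6 and 14HP24. Of the genes that act on LAG-3 itself, the sheddases ADAM10 and ADAM17 had 2858 and 827 counts and log2 fold changes of 0.30 and -1.33, and LGALS3, encoding the ligand galectin-3, had 647 and 0.42, none of them called.

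Among protein-coding genes CD4 and LAG3 lie next to each other, between PTMS and GPR162, on chromosome 11 of the rhesus assembly T2T-MMU8v2.0, from which gene order alone was taken. Of 5 neighbouring genes 0 were called (median 2.71). PTMS had 873 counts, 602 of them in 13EP5 and 17 in 14HP33, where CD4 and LAG3 were at 0. The other neighbours had counts only in libraries that held CD4.

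The sorted cells were also read for other lineages. T cell markers, 10 genes, summed to 1499, 1602, 99, 0 and 405 counts in Cohort B (13EP12, 13EP8, 14HP26, 14HP31, 15CP6) and to 3636, 16, 25, 7305 and 11 in Cohort C (13EP5, 14HP33, 14HP24, 15CP1, 15CP4), so in 14HP31, 14HP33, 14HP24 and 15CP4 the labelled cell type had 25 counts or fewer behind it. The CD8 and NK markers summed to at most 308 counts (267 CPM) in Cohort B and 625 (130 CPM) in Cohort C. Of these 8 genes 0 were called (median -1.67). Monocyte markers, which a CD3+ gate should lack, summed to 0 to 1627 counts in Cohort B and 0 to 6700 in Cohort C. Relative to depth the highest sums were 1276 and 1390 CPM. VCAN in 15CP1 gave 4416 of the 6700 counts, and 0 of 8 monocyte markers were called (median -0.04). CD14 and LYZ, which define monocytes, had 404 and 1137 counts.

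Blood monocytes of primates also carry CD4. Monocyte sums were 1471 and 1627 in 13EP12 and 13EP8, 576 in 13EP5, 6700 in 15CP1, 390 in 15CP6 and 98 in 14HP24, the same 6 libraries that had CD4, and at most 1 in the other 4. Those other 4 were also the libraries with the most housekeeping genes at 0. VCAN alone gave 1104 of the monocyte counts in 13EP12, 1084 in 13EP8, 338 in 15CP6 and 4416 in 15CP1. It gave 184 in 13EP5 and 28 in 14HP24. The part of monocytes in the CD4 counts was not tested. Plasmacytoid dendritic cell markers summed to 3786 counts in 13EP5 (1180 CPM), 664 in 15CP1 (138 CPM) and 200 in 15CP4 (1249 CPM), against at most 119 counts and 103 CPM in Cohort B. None of the 5 tested was called (median 3.91). TCF4 and GZMB made up most of these sums. They had 2761 and 990 counts in 13EP5, 412 and 195 in 15CP1, and 191 and 9 in 15CP4. By contrast CLEC4C had 17 counts in 13EP5, LILRA4 had 32 in 15CP1 and IL3RA had 0 in all libraries. The part of plasmacytoid dendritic cells in these sums was not tested. B cell markers summed to at most 105 and 398 counts (80.3 and 82.6 CPM) in the 2 cohorts, with 0 of 6 called (median -1.43). Erythroid markers reached 188 counts (416 CPM) in 15CP6 and 93 (1325 CPM) in 14HP33, and 0 of 1 was called.

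The 4 genes were compared with all others by the Pearson correlation of log2(CPM + 1) over the 10 libraries, given as a description because all share the same depths and zeros. CD4 was most like ILK (r = 0.998), SMARCC1 (0.996) and NASP (0.995). ITGB1 was most like RPL26 (0.998), SH3BGRL3 (0.997) and SRSF5 (0.995). ITGA2 was most like COX5B (0.998), IFITM2 (0.998) and KIAA0391 (0.996), and LAG3 was most like SLC35C1 (1), CLCF1 (0.999) and TSPYL5 (0.999). Each of the genes listed for LAG3 had counts in the same 3 libraries and in no other. Among the members, r was 0.903 for CD4 with ITGB1 and 0.850 for ITGA2 with LAG3, the pairs that passed 3 counts in the same libraries, and 0.530 for ITGA2 with ITGB1, the partners of one receptor.

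The 2 tables did not order the libraries alike. Of 18 member values above 3 counts, 3 were listed at 0 FPKM (16.7%, against 22.3% of 52225 such values over all genes). These were ITGA2 in 13EP12, LAG3 in 15CP1 and CD4 in 15CP6. Between 13EP5 and 15CP1, the deepest libraries, CD4 was 1.51 times higher in 13EP5 by CPM and 16.4 times by FPKM, and ITGB1 was 0.693 times by CPM and 5.89 times by FPKM. The median over 8697 genes moved likewise, from 0.947 to 7.46, so the shift was not particular to the members.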

How the data were processed

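Sorted Tr1 cells of 10 monkeys were profiled with a stranded total RNA kit and paired-end sequencing. The authors mapped the rhesus reads to the human genome hg38, and per the labels' processing notes used FastQC, HISAT2 2.0.2, Cuffdiff 2.2.1 and edgeR. The deposited count table holds raw read counts per gene, whose counting options are not given in the sources used here. Reads that did not map across species are lost, and reads shared by related genes or by overlapping genes are uncertain. The deposited FPKM values were made by the authors with Cuffdiff.

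From the counts, TMM factors, CPM and edgeR quasi-likelihood tests (edgeR 4.0.16, R 4.3.3) were computed over genes with at least 10 summed counts, with Benjamini-Hochberg adjustment. Log2(CPM + 1) was compared by exact permutation tests (scipy 1.17.1), and log2(FPKM + 1) by limma 3.58.1 over genes whose FPKM averaged 1 or more. A fold change on that scale understates the change of low genes. The edgeR and limma fits were run on simulated data with known changes. That run checked the code and not the power in these libraries, since the simulated limma values held no zeros. Samples were grouped by their titles. Named genes were the 4 members, genes of the lists with more than 3 counts in at least 3 libraries, and the 3 genes most like each member. ITGA7, ITGA11, ITGB3, IL3RA, LILRA4, CLEC4C, ITGA2B, GP1BA and the platelet markers at 0 fall outside the count minimum and were named after their values were seen. The members and lists were chosen with earlier results of these data known. Alternatives were other scalings, filters, tools, pseudocounts, covariates and sets of libraries. Gene order came from a RefSeq table of T2T-MMU8v2.0, where all 4 symbols matched. The summary of the list of LAG-3 ligands and sheddases is not reported here. Coordinates and sequences were not used here.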

Additional observations from a re-analysis of the deposited data

Results flagged for a closer look

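LAG3 in the Cohort B monkey 13EP12 stood apart from the rest of its cohort, at a log2(CPM + 1) of 3.27 against 0 in the other 4. The gap to the nearest library was the whole range of the cohort, so the ratio of gap to range was 1, above the critical value of 0.710 for 5 samples. It was the only one of 8 sets of values (4 genes in 2 cohorts) to do so, and chance sets apart about 1 in 20. A cohort with counts in a single library gives this ratio whatever the count, which was 10 here.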

How the results depend on the processing

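No member was called under any alternative run. Of 190 alternative values of the members, 28 changed sign and the rest kept their direction. The number of genes called (911) became 563 with DESeq2 size factors on positive counts, 10 with edgeR filterByExpr (ITGA2 and LAG3 then not tested), 341 with the edgeR exact test, 22 with DESeq2 (12 higher and 10 lower in Cohort C), 67 with limma-voom, 98 with the index suffix as a covariate (50 higher and 48 lower), 326 in libraries with at least 100000 counts and 146 in the 6 libraries with at most 4 housekeeping genes at 0, a set chosen after seeing the data. With 1 library left out it ran from 76 to 695 (76 without 13EP5, 143 without 15CP1, 515 without 14HP33, 567 without 14HP24, 583 without 13EP8, 587 without 15CP6 and 597 without 14HP26). The FPKM count stayed at 0.

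With limma-voom CD4 was -0.011, LAG3 0.58 and ITGB1 -0.73, and with the index suffix LAG3 was 0.26. ITGB1 reached 0.41 as a difference in mean log2(CPM + 1) in libraries with at least 100000 counts, and in the 6 libraries 0.54 there and 1.53 in FPKM. With 1 library left out, the log2 fold change by counts ran from -0.31 to 1.91 for CD4, from -2.97 to 1.66 for ITGA2, from -1.17 to 4.38 for LAG3 and from 0.0037 to 0.91 for ITGB1. By FPKM it ran from -1.59 to 1.23 for ITGB1. Differences in mean log2(CPM + 1) ran from -0.42 to 1.65 for CD4, from -0.88 to 0.52 for ITGA2, from -0.20 to 0.88 for LAG3 and from -2.72 to 0.61 for ITGB1. The causes were not tested.

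The replicate numbers did not pair the samples: deviations of same-numbered libraries correlated at 0.37, -0.28, 0.02, -0.42 and -0.04, and 1 of 10 libraries correlated best with its own number. With the replicate block 0 genes were called (edgeR), and CD4 and ITGB1 turned to -0.076 and -0.11. ITGA2 in FPKM was under the filter and was fitted only without it (log2 fold change 0.32), and LAG3 in FPKM could not be fitted without 13EP12 or without 13EP5. Depth limits LAG3 and ITGA2 most, whose zeros in most libraries cannot be told from a low level.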
